A study of Mus musculus with 24 samples.

Results

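Rps19 is a protein of the small ribosomal subunit, and inherited loss of one copy of its gene causes Diamond-Blackfan anaemia, in which erythroblasts fail to mature. A messenger RNA that carries several ribosomes sediments deep in a sucrose gradient as a polysome, whereas mRNA that is free, bound in untranslated particles or attached to early initiation complexes stays near the top. That upper, subpolysomal pool holds the mRNAs a cell keeps but does not heavily translate. Many mRNAs for ribosomal proteins and translation factors start with a run of pyrimidines, the terminal oligopyrimidine (TOP) tract, and are known to shift between both pools according to nutrient and growth signals.

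The subject here is the subpolysomal RNA of immortalized mouse erythroblasts that received an Rps19 shRNA or a control construct by lentivirus. Arrays were chosen by their labels, as 3 subpolysomal arrays of Rps19 shRNA gradients and 3 of control construct gradients, 6 of the 24 arrays of the series. Without serum, and with Epo, SCF and Dex as supports of erythroblast growth, the cultures were expanded, given cycloheximide and frozen, those with a construct 3 days after delivery. The labels name the control construct ev in titles and sc as an shRNA, and do not spell out either abbreviation. Rps19 shRNA replicate 3 alone carries the word puro, which is not explained either. Fractions holding polyribosomes, as far as the 80S peak, were combined into a polysomal sample, and the other fractions of the same gradient into the subpolysomal sample. Untransduced cells and cells with an Rpl11 shRNA (3 subpolysomal arrays each) also enter the estimate of spread. A knockdown in an immortalized line leaves some Rps19, and in RNA from whole cultures, fewer cells of a type and less RNA per cell cannot be told apart.

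Each array was started from 7 µg of RNA and scaled by the authors to one common trimmed mean, so signals are shares of a pool and a shift of all mRNA between pools would leave no trace. Log2 signals of the 6 arrays correlated at 0.917 to 0.932 across probe sets. Of 8 measured erythroblast markers 7 passed the filter, namely Gata1, Klf1, Epor, Tfrc, Alas2, Slc4a1 and Kit. Passing alone does not tell cell types apart. The filter also kept 3 of 4 megakaryocyte, 3 of 5 macrophage, 2 of 5 mast cell and 1 of 5 granulocyte markers. The labelled cell type fits the summed signals of its markers, the highest among the marker lists. They were 45800 to 61800 under the Rps19 shRNA and 60200 to 90600 under the control construct. The Hba-a1 probe set was dim, with mean signals of 26.8 under the Rps19 shRNA and 82.1 under the control construct. Summed signals of lymphoid markers, none of which passed the filter, were 230 to 254 under the Rps19 shRNA and 206 to 309 under the control construct. Mast cell markers summed to 374 to 426 under the Rps19 shRNA and 360 to 575 under the control construct, and granulocyte markers to 374 to 422 under the Rps19 shRNA and 306 to 436 under the control construct. Macrophage markers summed to 545 to 874 under the Rps19 shRNA and 831 to 902 under the control construct. Megakaryocyte markers were higher than macrophage markers, at 1780 to 4540 under the Rps19 shRNA and 2030 to 6410 under the control construct. Pf4 means were 2430 under the Rps19 shRNA and 3630 under the control construct. The part of other cell types in the results below was not tested.

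Rps19 itself, the target, had subpolysomal signals of 25900, 25400 and 19200 under the Rps19 shRNA, against 74100, 64100 and 71100 under the control construct. Every knockdown array lay below every control array, and Rps19 fell 2.99-fold (log2 change −1.58, SE 0.20, n = 3 arrays per group, limma adjusted p = 0.0156). Its polysomal signal fell by nearly as much (log2 −1.48, limma adjusted p = 0.0103), and the changes in the 2 pools differed by −0.10 (limma adjusted p = 0.849). A second probe set, shared with the pseudogene Rps19-ps3, gave 376, 299 and 208 under the Rps19 shRNA and 306, 244 and 371 under the control construct, and these ranges overlap.

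How many other mRNAs in the subpolysomal pool differed beyond the spread between cultures depended on the fit. Of 11024 genes tested, 17 passed an adjusted p of 0.05 (0.154% of all), 7 higher (0.0635%) and 10 lower (0.0907%) under the Rps19 shRNA, while 1456 had an unadjusted p under 0.05. In these 2 groups residuals correlated at 0.357, 0.158 and 0.12 between cultures of the same number, and at −0.26 to 0.145 between different numbers. With the replicate number as a block 9 genes passed, 3 higher and 6 lower. Without the Rpl11 shRNA arrays 88 genes passed (0.798%), 48 higher (0.435%) and 40 lower (0.363%), and all 17 were among the 88. The count was 69 with quantile normalization, 162 with a trended, robust variance and 193 with a stricter filter on signal. Of the 17, 14 were among the 193, and Gsdma, Csn1s2a and Dus2 did not pass the stricter filter. Their signals under the Rps19 shRNA lay below the median of each array, so they passed the main filter through other groups. Leaving out any one of the 6 arrays left 1 to 3 genes past the threshold. Gsdma was among them each time, but its knockdown signals lie near the constant added before the logarithm. A fit to the 6 arrays alone left 0 genes (1907 with unadjusted p under 0.05). The control construct differed from untransduced cells in 0 genes (0% of all, 309 with unadjusted p under 0.05). Against untransduced cells, in a comparison that shares the Rps19 shRNA arrays, 18 genes differed (0.163%), 8 higher (0.0726%) and 10 lower (0.0907%), among them 4 of the 7 higher and 9 of the 10 lower.

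**Figure D1:**
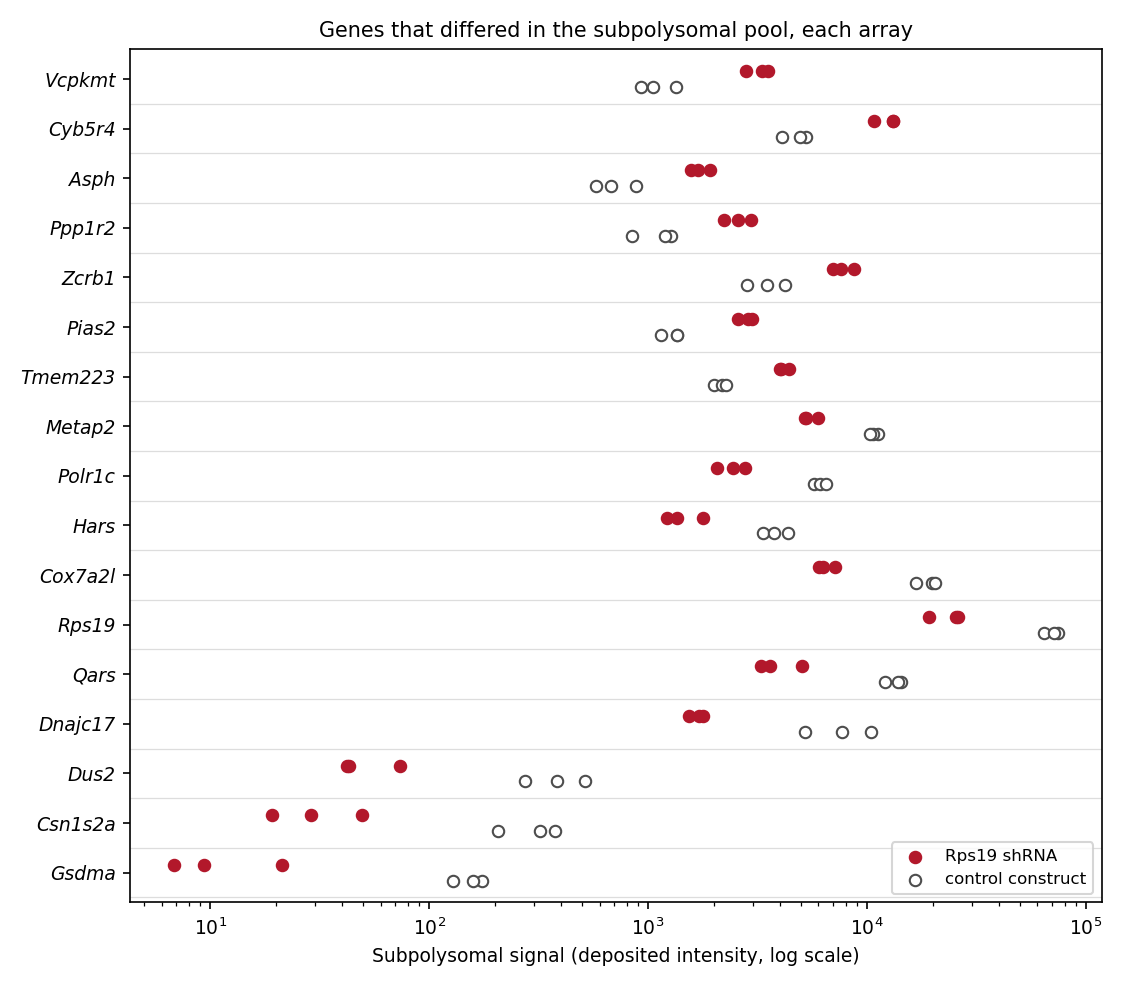
Deposited subpolysomal signal (log scale) of the 17 genes that differed between the Rps19 shRNA (filled points) and the control construct (open points), 1 point per array and 3 arrays per group. Genes are ordered by change, and the groups do not overlap in any of them. The 3 genes at the bottom, Dus2, Csn1s2a and Gsdma, have signals under 100 in every knockdown array.

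Of the 7 mRNAs that accumulated in the subpolysomal pool, Asph also rose on polysomes (0.653% of all genes did), and 4 shifted towards the subpolysomal pool by the test of the difference between pools. Vcpkmt, a methyltransferase that modifies a lysine of the ATPase VCP, had signals of 3540, 2800 and 3300 under the Rps19 shRNA, against 1340, 1050 and 923 under the control construct. It rose 2.92-fold in the subpolysomal pool (log2 1.55, SE 0.20, limma adjusted p = 0.0156), and its polysomal change of 0.52 did not pass (limma adjusted p = 0.183). Cyb5r4, a cytochrome b5 reductase of the endoplasmic reticulum, had 10700, 13100 and 13100 under the Rps19 shRNA, against 4100, 5270 and 4940 under the control construct. Its subpolysomal rise was 2.58-fold (log2 1.37, SE 0.17, limma adjusted p = 0.0156). On polysomes Cyb5r4 had 5640, 6410 and 6690 under the Rps19 shRNA, against 5880, 6520 and 6420 under the control construct, which overlap. The difference between pools, 1.38 on the log2 scale (SE 0.13, limma adjusted p = 0.00875), had the smallest adjusted p of all genes tested for it.

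Ppp1r2, the inhibitor-2 of protein phosphatase 1, had subpolysomal signals of 2220, 2580 and 2940 under the Rps19 shRNA, against 846, 1270 and 1200 under the control construct, a rise of 2.35-fold (log2 1.23, SE 0.20, limma adjusted p = 0.0441). Its polysomal change was 0.01. Its 3 other probe sets had subpolysomal changes of 0.45, 0.93 and 0.98 on the log2 scale, all upward. Zcrb1, an RNA-binding protein of the minor spliceosome, had 8740, 7020 and 7620 under the Rps19 shRNA, against 4240, 3500 and 2820 under the control construct. It rose 2.23-fold (log2 1.16, SE 0.19, limma adjusted p = 0.0441), while a much dimmer probe set of the gene had a change of −0.25. Tmem223, known in human cells as a mitochondrial inner membrane protein needed to assemble cytochrome oxidase, had 4390, 4020 and 4060 under the Rps19 shRNA, against 1990, 2180 and 2270 under the control construct. Its rise was 1.93-fold (log2 0.95, SE 0.14, limma adjusted p = 0.0379), beside a polysomal change of 0.07. For Cyb5r4, Ppp1r2, Zcrb1 and Tmem223 the change in the subpolysomal pool exceeded that in the polysomal pool (4 of the 7 higher genes, where 0.581% of all genes passed that test in that direction). None of these 4 pool differences passed with the replicate block, which left 0 genes of 103 (1579 with unadjusted p under 0.05 in limma).

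Pias2, a SUMO ligase, had 2570, 2980 and 2850 under the Rps19 shRNA, against 1150, 1350 and 1350 under the control construct. It rose 2.18-fold (log2 1.12, SE 0.18, limma adjusted p = 0.0395), while 2 dimmer probe sets had changes of 0.01 and 0.19. Asph, an endoplasmic reticulum enzyme that hydroxylates aspartate in secreted proteins, is the one gene that rose in both pools. Its subpolysomal signals were 1570, 1690 and 1910 under the Rps19 shRNA, against 877, 578 and 678 under the control construct (log2 1.28, SE 0.20, limma adjusted p = 0.0395), and its polysomal change was 1.27 (limma adjusted p = 0.0368). Of its 5 other probe sets 3 were slightly higher, 1 had a change of −0.10 and 1 a change of −0.84, so the probe sets of the gene disagree. With the replicate block Zcrb1, Tmem223, Pias2 and Asph each had a limma adjusted p of 0.0731.

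**Figure D2:**
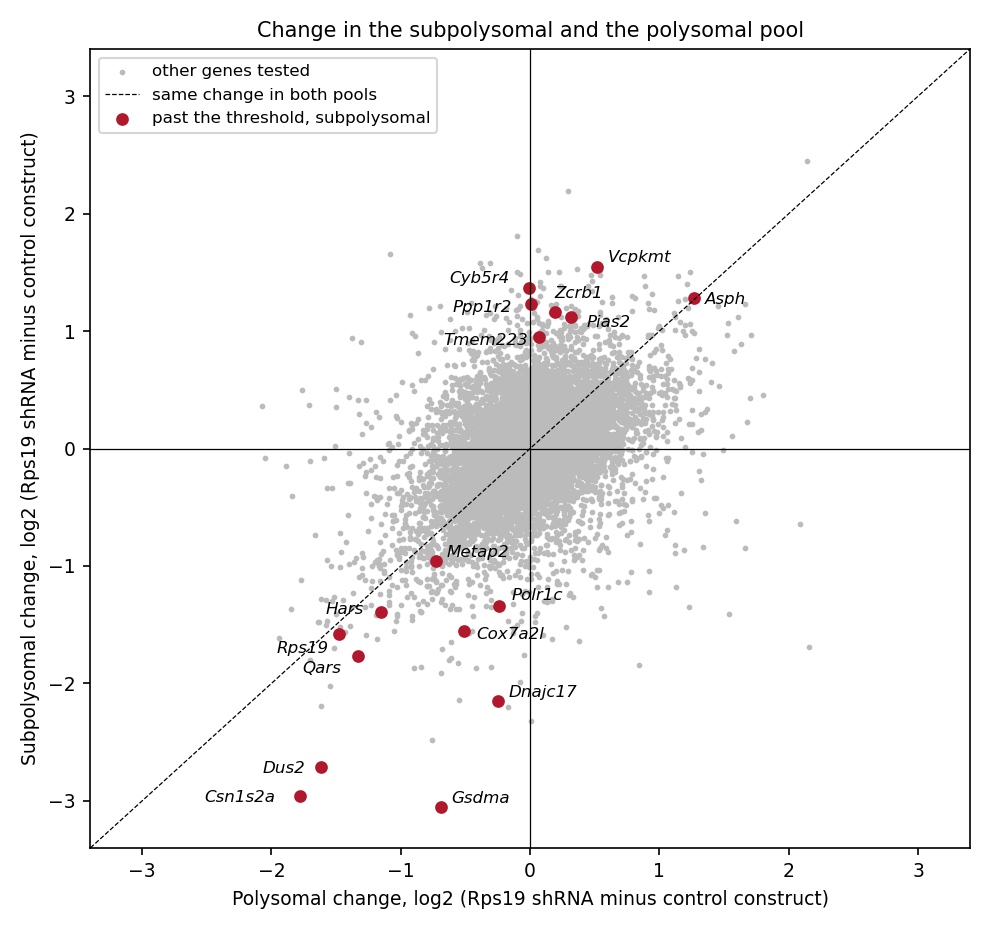
Log2 change (Rps19 shRNA minus control construct) in the subpolysomal pool on the vertical axis and in the polysomal pool on the horizontal axis, 1 point per gene for 11024 genes, with the 17 genes past the subpolysomal threshold in red. Points on the dashed line changed alike in both pools, as Rps19 (−1.58 and −1.48) and Asph (1.28 and 1.27) did. Cyb5r4 and Ppp1r2 lie on the vertical axis, with polysomal changes of −0.01 and 0.01.

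Among the mRNAs that left the subpolysomal pool, 5 of 10 were lower on polysomes as well, where 0.508% of all genes fell. They are Rps19, the tRNA synthetases Qars and Hars, the methionine aminopeptidase Metap2 and the milk casein Csn1s2a. Qars, which charges glutamine tRNA, had subpolysomal signals of 3590, 5060 and 3290 under the Rps19 shRNA, against 14300, 13800 and 12100 under the control construct. It fell 3.42-fold (log2 −1.77, SE 0.24, limma adjusted p = 0.0156), and its polysomal change was −1.33 (limma adjusted p = 0.0220). Its probe set is of a kind that may bind other transcripts too, as are those used for Dus2, Cox7a2l and Polr1c below. The other 3 probe sets of Qars had changes of −1.76, −0.63 and −0.42.

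Hars, the synthetase for histidine, had 1780, 1360 and 1220 under the Rps19 shRNA, against 4340, 3330 and 3750 under the control construct. It fell 2.63-fold (log2 −1.39, SE 0.22, limma adjusted p = 0.0395), though with the replicate block the adjusted p was 0.0731, and its polysomal change was −1.15. These are 2 of the 22 synthetase and synthetase-complex genes tested, where 0.0907% of all genes passed as lower. The other 20 had no call, and their list had a median change of −0.18 in the subpolysomal and −0.16 in the polysomal pool, against 0.02 and 0.00 over all genes. Metap2, which removes the first methionine from new proteins, had 5980, 5280 and 5230 under the Rps19 shRNA, against 11200, 10600 and 10300 under the control construct (log2 −0.96, SE 0.16, limma adjusted p = 0.0441, and 0.0731 with the replicate block). Its 3 other probe sets had changes of −0.65, −0.71 and −0.42.

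Csn1s2a had low signals, 19.1, 29.0 and 49.5 under the Rps19 shRNA and 375, 321 and 207 under the control construct. Its probe set fell 7.81-fold (log2 −2.96, SE 0.43, limma adjusted p = 0.0261), while other probe sets of the gene ranged from −1.83 to 0.97. Its knockdown signals are below the median signal of those arrays, and the change was −3.23 with an added constant of 1 and −2.36 with one of 32. Dus2, which makes dihydrouridine in tRNA, had 73.2, 42.2 and 42.8 under the Rps19 shRNA, against 514, 275 and 383 under the control construct. It fell 6.55-fold (log2 −2.71, SE 0.36, limma adjusted p = 0.0156, and 0.0621 with the replicate block). The other probe set of the gene had a change of −1.37 (limma adjusted p = 0.377 where a filter over all 24 arrays selects it). Neither its polysomal change of −1.62 (limma adjusted p = 0.144) nor the difference between its pools passed.

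A further 4 genes fell in the subpolysomal pool by more than on polysomes (0.354% of all genes passed that test in that direction), and with the replicate block none of these 4 differences passed. Cox7a2l, which helps to assemble respiratory supercomplexes, had 7100, 6280 and 6050 under the Rps19 shRNA, against 19900, 16700 and 20500 under the control construct. It fell 2.93-fold (log2 −1.55, SE 0.19, limma adjusted p = 0.0156), and its 2 other probe sets had changes of −1.39 and −1.28. Its polysomal signals were 4930, 3640 and 3670 under the Rps19 shRNA, against 6000, 5080 and 6260 under the control construct, a change of −0.51 that did not pass. Polr1c, a subunit shared by RNA polymerases I and III, had 2770, 2450 and 2070 under the Rps19 shRNA, against 5750, 6120 and 6510 under the control construct. It fell 2.53-fold (log2 −1.34, SE 0.19, limma adjusted p = 0.0256, and 0.0621 with the replicate block), with −1.17 in its other probe set and a polysomal change of −0.24. Polr1c is the 1 called gene among 69 ribosome biogenesis factors (0.0907% of all genes were called lower), whose median change was 0.02.

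Dnajc17, a J-domain co-chaperone, had 1540, 1700 and 1780 under the Rps19 shRNA, against 5210, 7650 and 10400 under the control construct. It fell 4.45-fold (log2 −2.15, SE 0.28, limma adjusted p = 0.0156), but 2 dimmer probe sets of the gene had changes of 0.28 and 0.05. Gsdma, a pore-forming gasdermin known from skin and upper gut epithelium, had 9.37, 21.3 and 6.86 under the Rps19 shRNA, against 175, 159 and 129 under the control construct. All 3 knockdown arrays were near the constant of 7.852 added before the logarithm, so the size of its change (log2 −3.05, SE 0.27, limma adjusted p = 0.00184) depends on that constant, at −3.66 with a constant of 1 and −2.07 with one of 32. A second probe set of the gene had a change of −0.69, and the mean of both gave −1.87 (limma adjusted p = 0.0518). On polysomes Gsdma overlapped, with 89.4, 49.6 and 52.0 under the Rps19 shRNA and 79.1, 87.8 and 162 under the control construct.

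Bag1, a co-chaperone of Hsp70 whose mRNA is reported to hold an internal ribosome entry site, had subpolysomal signals of 14800, 16500 and 17900 under the Rps19 shRNA, against 10400, 14100 and 12800 under the control construct. The groups do not overlap, as in 13.6% of all genes in that direction, and the change of 0.40 did not pass (SE 0.16, limma adjusted p = 0.316). Bag1's polysomal signals were 8740, 10500 and 10200 under the Rps19 shRNA, against 11900, 13200 and 12900 under the control construct (log2 change −0.37, limma adjusted p = 0.257). The difference between pools was 0.78 (limma adjusted p = 0.0662).

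Without the Rpl11 arrays 41 more genes were higher, none of which passed with those arrays. The genes given here were named after their values were seen. Bmi1 and Phc1, both Polycomb repressive complex 1 genes, had subpolysomal changes of 1.00 and 1.07 with limma adjusted p of 0.0463 each. Bmi1 signals were 5490, 5050 and 5400 under the Rps19 shRNA, against 2250, 3040 and 2750 under the control construct. Phc1 signals were 2600, 3340 and 3460 under the Rps19 shRNA, against 1400, 1560 and 1460 under the control construct. In both genes the groups do not overlap, as in all 48 genes called higher in that fit. The polysomal changes of Bmi1 and Phc1 were 0.18 and 0.14. Pigp, which acts in the first step of GPI anchor synthesis, had 6860, 7330 and 7560 under the Rps19 shRNA, against 3690, 3940 and 3650 under the control construct (log2 0.95, polysomal change 0.04). Ptpmt1, a mitochondrial phosphatase of cardiolipin synthesis, had a subpolysomal change of 0.91 and a polysomal change of −0.12.

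On the lower side 30 genes were added without the Rpl11 arrays. Rb1, the retinoblastoma tumour suppressor with a known role in erythroid maturation, had 2180, 3000 and 2750 under the Rps19 shRNA, against 5520, 5620 and 4950 under the control construct. Its change was −1.03 in the subpolysomal pool (limma adjusted p = 0.0463 without the Rpl11 arrays, 0.0577 with them) and Rb1 fell on polysomes as well (limma adjusted p = 0.0456). Hspa8, the constitutive Hsp70, had 19900, 20900 and 16900 under the Rps19 shRNA, against 46900, 44400 and 42200 under the control construct. Its subpolysomal change was −1.21 (limma adjusted p = 0.0476 without the Rpl11 arrays, 0.0693 with them), and its polysomal change was −0.62. The Gapdh probe sets, whose 3′ to 5′ log2 ratio is a sign of RNA quality, gave −0.46 to 3.9 in the Rpl11 subpolysomal arrays. It was −0.42 to −0.32 in the Rps19 shRNA and −0.41 to −0.34 in the control construct subpolysomal arrays. In the polysomal arrays the ratio was 0.99 to 3.31 for Rpl11, −0.4 to 0.42 for the Rps19 shRNA and −0.34 to 0 for the control construct. The part of RNA quality in the difference between the counts was not tested.

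Of 67 ribosomal protein and other TOP mRNAs tested, 62 had lower mean subpolysomal signals under the Rps19 shRNA, but Rps19 alone passed the test (1 of 67, where 0.0907% of all genes passed as lower), and no set was tested. Start sites of 6 such RNAs are shown because the tract that defines the class can be read from them, followed by 3 of the mRNAs that rose. Each is the 30 bases around a RefSeq start in GRCm38.p6 on the coding strand, 10 before it and 20 from it on, with the pyrimidine tract in capitals. A start with a tract was taken where the gene had any, and the genes were picked after their values were seen. They lie at chr9:120571507-120571536 (+) for Rpl14, chr4:86857348-86857377 (−) for Rps6, chr10:111473217-111473246 (+) for Nap1l1, chr7:108934405-108934434 (+) for Eif3f, chr1:161035156-161035185 (+) for Gas5 and chr17:33955646-33955675 (−) for Rps18. Those without a tract lie at chr12:69582998-69583027 (−) for Vcpkmt, chr9:87022019-87022048 (+) for Cyb5r4 and chr16:31275258-31275287 (−) for Ppp1r2.
Rpl14: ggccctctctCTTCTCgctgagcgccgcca
Rps6: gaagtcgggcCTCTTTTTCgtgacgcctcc
Nap1l1: gctctcgggtCTTTTTTagcgccatctgct
Eif3f: tctaggctctCTCTCTTTCTCggcaagatg
Gas5: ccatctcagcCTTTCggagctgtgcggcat
Rps18: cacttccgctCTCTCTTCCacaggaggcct
Vcpkmt: acgttaccgcgtgccgcagcctgcggcggg
Cyb5r4: cgtcacgacgcgcctgacccctggcgaccc
Ppp1r2: tatcgcgagagggagggccgggcttggctt

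A tract was counted where any RefSeq start listed for the gene is a C followed by at least 4 pyrimidines on the coding strand. It was present at 12 of the 57 members of the 3 lists that have a start in the table (21.1%), and at 3.04% of 8982 tested genes. Only the listed positions were read, so a tract that begins a few bases away from them is not counted. Members with the tract had a median subpolysomal change of −0.46 and those without it −0.48. The 261 other tested genes with a tract had a median of 0.01, against 0.02 over all genes. Of the genes called in the subpolysomal pool, 0 of 8 lower and 0 of 4 higher genes with a start in the table had the tract.

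Small-subunit ribosomal protein mRNAs had a list median log2 signal of 15.72, 15.67 and 15.47 under the Rps19 shRNA, against 16.18, 15.97 and 16.10 under the control construct. The groups do not overlap, and 20 of 21 tested members were lower on average, 16 of them with no overlap (11.6% of all genes). The median change was −0.43 in the subpolysomal and 0.00 in the polysomal pool, and 1 member, Rps19, passed. Rps6, a core protein of the small subunit and a target of S6 kinase, had 837, 639 and 468 under the Rps19 shRNA, against 1880, 1620 and 2120 under the control construct (log2 −1.55, SE 0.29, limma adjusted p = 0.0589). Rps25, another small-subunit protein, had 5020, 4350 and 3440 under the Rps19 shRNA, against 6360, 6540 and 6670 under the control construct (log2 −0.63, limma adjusted p = 0.228), beside a polysomal change of 0.54. At the other end Rps2, Rpsa and Rps29 had changes of −0.15, −0.18 and −0.19 with overlapping groups, and Rps27 a change of 0.26. These members other than Rps19 were named after their values were seen.

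Large-subunit ribosomal protein mRNAs had list medians of 15.59, 15.41 and 15.31 under the Rps19 shRNA, against 16.17, 15.86 and 16.01 under the control construct. Of 22 tested members 20 were lower on average, 16 without overlap (11.6% of all genes) and 0 past the threshold (smallest limma adjusted p 0.0667), and the median change was −0.46 in the subpolysomal and −0.07 in the polysomal pool. Rpl14 had 1240, 779 and 762 under the Rps19 shRNA, against 4390, 2570 and 2680 under the control construct (log2 −1.78, SE 0.36, limma adjusted p = 0.0667). Its polysomal change was −0.61, and the difference between pools passed without the replicate block (log2 −1.17, limma adjusted p = 0.0428). Rpl37 had 7310, 7330 and 6830 under the Rps19 shRNA, against 16000, 12600 and 15800 under the control construct (log2 −1.04, limma adjusted p = 0.173). Its polysomal change was 0.29, and its pool difference of −1.33 passed without the block (limma adjusted p = 0.0302). Rpl11, the other gene targeted in the series, had 41600, 33100 and 32100 under the Rps19 shRNA, against 62300, 48800 and 51400 under the control construct (log2 −0.61, SE 0.30, limma adjusted p = 0.419).

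Other TOP mRNAs, mostly translation factors, had a list median of −0.68 in the subpolysomal and −0.09 in the polysomal pool. The subpolysomal median is the lowest of the 26 lists as deposited, but not with quantile normalization. There it was −0.36, beside −0.39 for integrated stress response genes and −0.37 for erythroid membrane and globin genes. The list median log2 signals of other TOP mRNAs were 14.58, 14.33 and 14.33 under the Rps19 shRNA, against 15.18, 14.81 and 14.88 under the control construct. Of 24 tested members 22 were lower on average, 18 without overlap (11.6% of all genes), and 0 passed (smallest limma adjusted p 0.0577). Nap1l1, a histone chaperone, had 6840, 7530 and 5750 under the Rps19 shRNA, against 16600, 16800 and 16200 under the control construct (log2 −1.31, SE 0.23, limma adjusted p = 0.0577, and 0.0463 without the Rpl11 arrays). It was not lower on polysomes (0.13), and the pool difference of −1.44 passed without the block (limma adjusted p = 0.0411). Eif3k, a subunit of initiation factor 3, had 14000, 12000 and 12200 under the Rps19 shRNA, against 23900, 22300 and 24200 under the control construct (log2 −0.88, limma adjusted p = 0.0679). Eif4b, a helicase cofactor, and Eef2, the translocation factor of elongation, had subpolysomal changes of −1.33 and −0.86 and polysomal changes of −1.09 and −0.84, and neither gene passed in either pool. Eef1a1, Pabpc1, Tpt1 and Ybx1 had changes of −0.20, −0.12, −0.10 and −0.02 with overlapping groups, and like Eif4b and Eef2 they were named after their values were seen.

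**Figure D3:**
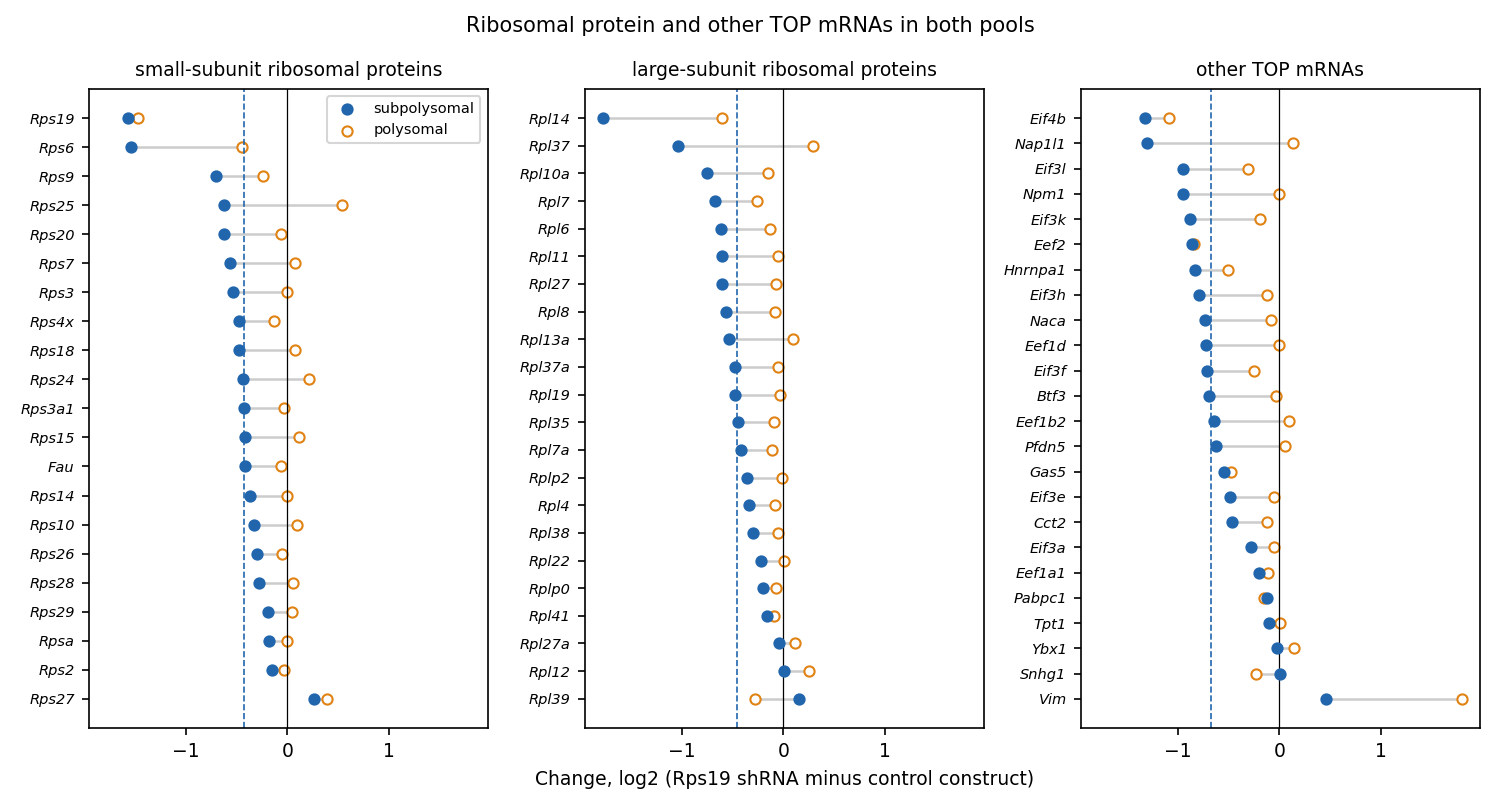
Log2 change (Rps19 shRNA minus control construct) of every tested ribosomal protein and other TOP mRNA, in the subpolysomal pool (filled points) and in the polysomal pool (open points), with each list's subpolysomal median as a dashed line (−0.43, −0.46 and −0.68). Most filled points lie left of 0 and most open points near 0. Rps19 fell in both pools, while the leftward open points of Eif4b (−1.09) and Eef2 (−0.84) did not pass.

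Over the 3 lists together 50 of 67 tested members were lower without overlap, against 11.6% of all genes. In the test of the difference between pools 5 of the 67 passed as lower (0.354% of all genes), namely Rpl14, Rpl37, Nap1l1, Btf3 and Vim, the last because its polysomal change was 1.80, and with the replicate block 0 did. The lists were chosen with earlier results of these data known and are not independent evidence of this direction. The highest signal of an array was itself lower in the knockdown arrays, at 74690 to 82533 under the Rps19 shRNA against 88922 to 111758 under the control construct. Among the 130 genes off the lists with a mean log2 signal of 14 or more, the median change was −0.12 and 36.2% were lower without overlap. For the 20 of them at 15 or more, nearer to the ribosomal protein list medians, it was −0.15 and 50% were lower without overlap. List members with a mean log2 signal under 14 had a median of −0.63 (15 genes), and those of 14 or more −0.48 (52 genes). Quantile normalization, which forces that end to be equal in all arrays, brought the medians to −0.08 for the small subunit, −0.07 for the large subunit and −0.36 for other TOP mRNAs. Against untransduced cells, with the same Rps19 shRNA arrays, the medians were −0.64, −0.63 and −0.75. The untransduced arrays spread widely, with list median log2 signals of 16.58, 16.41 and 15.86 for the small and 16.49, 16.3 and 15.73 for the large subunit. For other TOP mRNAs they were 15.54, 15.26 and 14.49, which overlap the Rps19 shRNA arrays (14.58, 14.33 and 14.33).

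Erythroid mRNAs tended to lower subpolysomal signals under the Rps19 shRNA without any of them passing the test. Membrane and globin genes had a median change of −0.34 (22 of 27 lower on average, 13 without overlap where 11.6% of all genes were, 0 called), and in the polysomal pool it was −0.29. Prdx2, an abundant red cell peroxidase, had 20500, 18800 and 19600 under the Rps19 shRNA, against 28100, 31100 and 31400 under the control construct (log2 −0.62, limma adjusted p = 0.124). Its groups lie apart. Slc4a1, the band 3 anion exchanger of the red cell membrane, had 1780, 3000 and 2540 under the Rps19 shRNA, against 3480, 8750 and 7360 under the control construct (log2 −1.35, SE 0.43, limma adjusted p = 0.198). Replicate 1 was the lowest in both groups. The same order held for Hbb-b2, an adult beta globin, with 1110, 2450 and 1880 under the Rps19 shRNA and 2450, 6730 and 6480 under the control construct (log2 −1.46, limma adjusted p = 0.204). In Epb42, a membrane skeleton protein, the signals were 161, 280 and 220 under the Rps19 shRNA, against 343, 778 and 840 under the control construct. Slc4a1, Hbb-b2 and Epb42, chosen after their values were seen, had polysomal changes of −1.38, −0.91 and −1.57.

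Haem and iron genes had a median change of −0.32 in the subpolysomal and −0.24 in the polysomal pool, with 25 of 34 lower on average, 15 without overlap (11.6% of all genes) and 0 called. Slc25a37, the mitochondrial iron importer mitoferrin-1, had 4570, 4400 and 3690 under the Rps19 shRNA, against 8320, 15400 and 15000 under the control construct (log2 −1.56, SE 0.32, limma adjusted p = 0.0655). Its polysomal change was −1.43 (limma adjusted p = 0.0646). Alas2, the erythroid enzyme that starts haem synthesis, had 9750, 20100 and 19200 under the Rps19 shRNA, against 15800, 40500 and 38600 under the control construct, and the ranges overlap through control replicate 1. Within each replicate number Alas2 was lower under the Rps19 shRNA (log2 change −0.90), and it did not pass with the replicate block either (limma adjusted p = 0.230). Against untransduced cells the medians of both lists were nearer to 0, at −0.17 for membrane and globin genes and −0.16 for haem and iron genes.

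Erythroid regulators differed among themselves in direction. Gata1, a master transcription factor of the lineage, had 5870, 5680 and 6500 under the Rps19 shRNA, against 5420, 6530 and 6130 under the control construct, a change of 0.00. Klf1, the activator of beta globin, had a change of −0.18. Kit, the SCF receptor that is lost on maturation, had 3530, 4170 and 4420 under the Rps19 shRNA, against 3410, 2140 and 2340 under the control construct (log2 0.64, SE 0.25, limma adjusted p = 0.279). Gata2, which precedes Gata1 in erythroid cells, had 1790, 1330 and 1440 under the Rps19 shRNA, against 1000, 702 and 870 under the control construct (log2 0.82, limma adjusted p = 0.250). Neither passed, and over 36 erythroid transcription and signalling genes the median was −0.11.

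**Figure D4:**
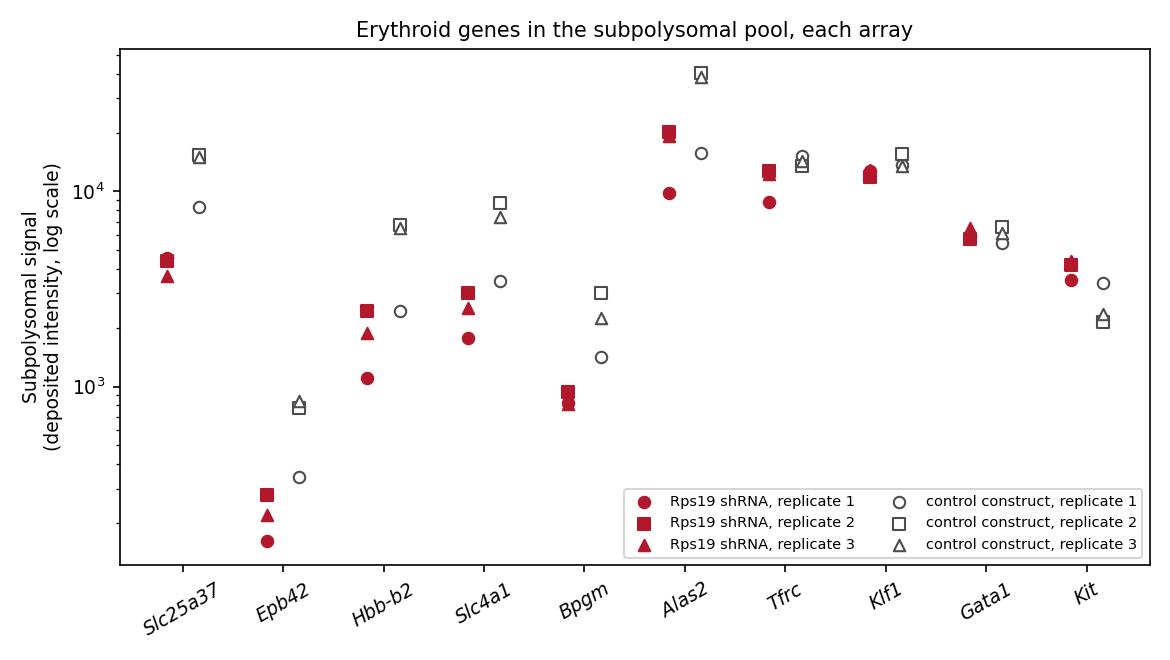
Deposited subpolysomal signal (log scale) of 10 erythroid genes in each array, with the Rps19 shRNA (filled) left of the control construct (open) and a symbol per replicate number. Replicate 1 (circles) is the lowest of its group for Epb42, Hbb-b2, Slc4a1 and Alas2 in both groups. Gata1 and Klf1 differ little, and none of the 10 genes passed the threshold.

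Among the other lists, integrated stress response genes had a median of −0.39 in the subpolysomal and −0.22 in the polysomal pool, with 19 of 26 lower on average and 0 called. Cebpb, a transcription factor of that list, had 899, 904 and 785 under the Rps19 shRNA, against 1290, 2010 and 1800 under the control construct (log2 −0.95, limma adjusted p = 0.120). Endoplasmic reticulum translocation and glycosylation genes had a median of 0.16 in the subpolysomal and 0.30 in the polysomal pool, where 7 of 49 rose (0.653% of all genes) and 0 were called in the subpolysomal pool. Sec63, a chaperone of the translocon, had 733, 857 and 901 under the Rps19 shRNA, against 435, 437 and 359 under the control construct (log2 1.00, SE 0.20, limma adjusted p = 0.0655), and a polysomal change of 1.25 (limma adjusted p = 0.0368). Eif1b, an initiation factor related to the start codon factor Eif1, had 4160, 4520 and 5260 under the Rps19 shRNA, against 1920, 2730 and 2750 under the control construct. Its subpolysomal change was 0.92 (limma adjusted p = 0.0981) and its polysomal change −0.30, and the pool difference of 1.22 passed (limma adjusted p = 0.0295), though not with the replicate block. Histone genes had the highest median of the 26 lists, 0.36 over 8 genes with 0 called, and the variant histone H2az2 had a change of 0.55 (limma adjusted p = 0.186).

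The p53 target list had a median of 0.01 in the subpolysomal and −0.24 in the polysomal pool over 28 genes, with 0 called in the subpolysomal pool. Siva1, an apoptosis factor on it, had 10700, 8220 and 9040 under the Rps19 shRNA, against 4050, 6720 and 4960 under the control construct (log2 0.85, limma adjusted p = 0.202), a polysomal change of −0.66 and a pool difference of 1.51 that passed (limma adjusted p = 0.0311), though not with the replicate block. Gadd45a, a growth arrest gene, had 2060, 1940 and 2060 under the Rps19 shRNA, against 3590, 6320 and 5790 under the control construct (log2 −1.33, limma adjusted p = 0.0759), with a polysomal change of −1.23. The 28 initiation factors, 40 proteasome genes, 77 mitochondrial ribosomal protein genes, 45 DNA replication genes and 38 mitosis genes had subpolysomal medians of −0.03, 0.04, 0.05, −0.05 and 0.09, and 0 members of these 5 lists were called.

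**Figure D5:**
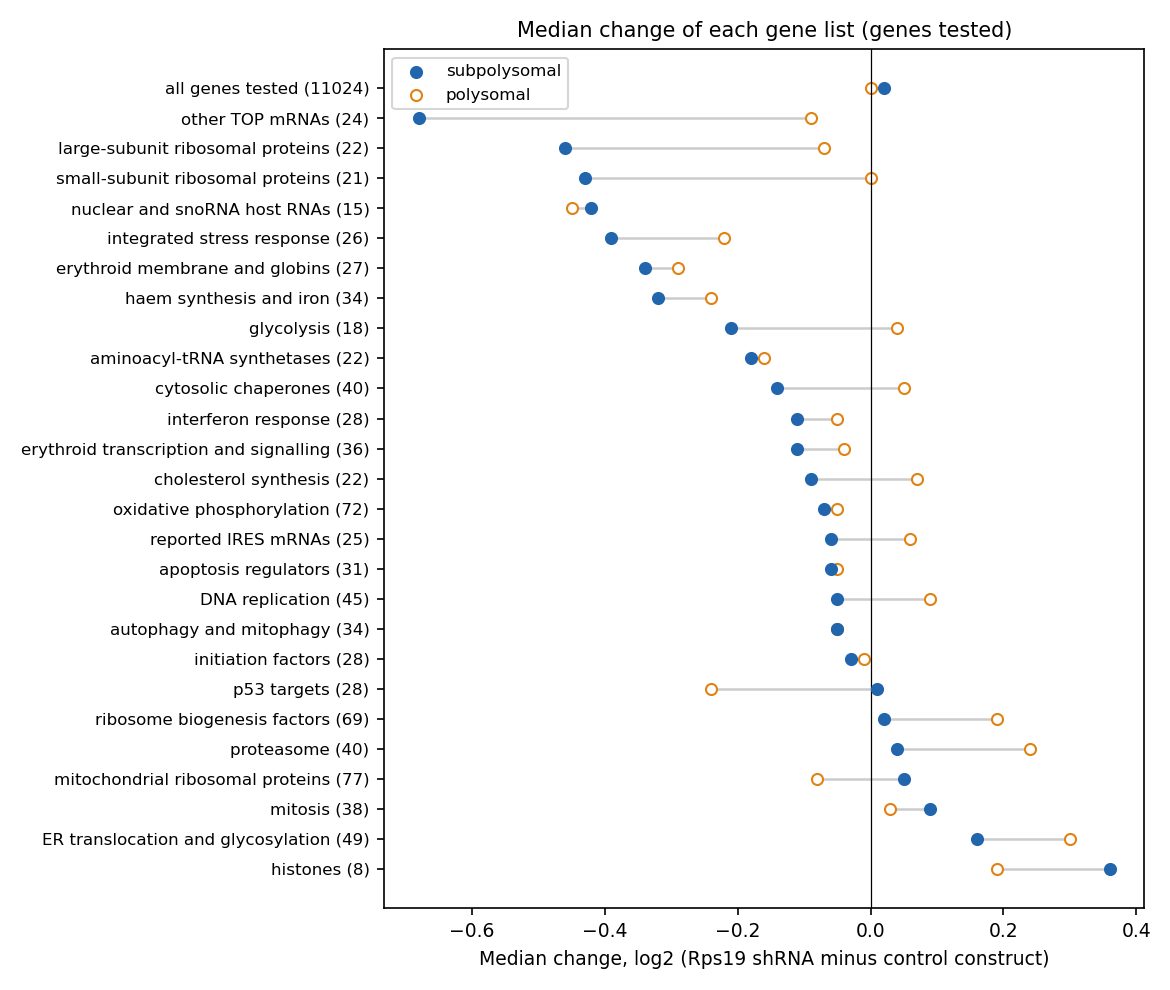
Median log2 change (Rps19 shRNA minus control construct) of each gene list in the subpolysomal pool (filled) and in the polysomal pool (open), with the number of genes tested in brackets and all genes in the top row. The other TOP list (−0.68) and both ribosomal protein lists (−0.46 and −0.43) lie lowest in the subpolysomal pool as deposited. Their polysomal medians are −0.09, −0.07 and 0.00. Nuclear and snoRNA host RNAs lie close by, at −0.42 in the subpolysomal and −0.45 in the polysomal pool. No list was tested as a set.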

How the data were processed

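The authors deposited linear intensity signals of 45101 mouse probe sets on 24 arrays, made with MAS5 per the submitters' processing notes, with no version given. Those signals were kept, a pseudocount of 7.852 (0.1 times their median) was added and log2 taken. A second deposited table of polysomal shares was not used. GEO's platform annotation pairs 34958 probe sets with a single symbol, 34754 of which were updated through their gene ID. A further 932 carry several symbols and 9211 carry no symbol, and values were missing in 2 probe sets. Control probe sets were removed, as was the dimmer 50% by mean log2 signal in the 12 subpolysomal arrays, and the brightest probe set per gene was kept, which left 11024 genes.

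Models whose only term was the group were fitted separately in the 12 subpolysomal arrays, in the 12 polysomal arrays and in the difference of pools per gradient (R 4.3.3, limma 3.58.1), with Benjamini-Hochberg adjustment over all genes and a threshold of 0.05. The labels call cultures biological replicates, and 3 per group limit the precision. On simulated data for this comparison (11024 genes, 200 changed), 45% of log2 changes of 1 and 83% of log2 changes of 2 were called, and 6 unchanged genes. These shares hold for 200 changed genes only, because the adjusted p depends on how many genes change. Replicate numbers were checked on residuals: same-numbered Rps19 shRNA and control arrays correlated at 0.357, 0.158 and 0.12, different numbers at −0.26 to 0.145. A fit with the number as a block is given beside the count of calls.

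Named genes are Rps19, Rpl11 and Bag1, called genes whose groups do not overlap, and up to 3 called members of each of 26 lists (the 2 with the smallest p where none was called). Members outside this rule were named after their values were seen. The groups compared and the lists were chosen with earlier results of these data known. Alternatives changed the arrays in the fit, the pseudocount, the filter, the scaling, the probe set rule, the block and the variance model.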

Additional observations from a re-analysis of the deposited data

Results flagged for a closer look

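In 8 of the 17 genes called in the subpolysomal pool the change under the Rps19 shRNA differed between the pools by the test of the difference itself (limma, adjusted over 11024 genes). None of the 8 differences passed with the replicate block, and leaving out 1 replicate left 0 to 2 such calls among all genes. The subpolysomal change exceeded the polysomal one in Cyb5r4 by 1.38 (adjusted p = 0.00875), in Ppp1r2 by 1.22 (adjusted p = 0.0295), in Zcrb1 by 0.97 (adjusted p = 0.0449) and in Tmem223 by 0.88 (adjusted p = 0.0302). It lay below the polysomal one in Gsdma, with a difference of −2.35 (adjusted p = 0.0411), in Dnajc17, with −1.90 (adjusted p = 0.0302), in Cox7a2l, with −1.04 (adjusted p = 0.0357), and in Polr1c, with −1.10 (adjusted p = 0.0411). For Cyb5r4 and Tmem223 the array holds no other probe set with that symbol alone. Groups of 3 arrays were not tested for outlying arrays.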

How the results depend on the processing

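Counts of called genes depended on the setting. In the subpolysomal pool (17) they were 0 with the 6 arrays alone, 88 without the Rpl11 arrays, 1 without a filter (18192 genes tested), 193 with a stricter filter (6726 tested), 69 with quantile normalization, 4 with the mean of all probe sets, and 162 with a trended, robust variance. In the polysomal pool (128) the same settings gave 0, 265, 0, 299, 142, 67 and 264, and for the difference of pools (103) they gave 0, 91, 0, 391, 131, 21 and 102. The replicate block gave 9, 28 and 0. Chosen after the data were seen, a block shared only by the Rps19 shRNA and control gradients gave 9, 19 and 0, and a block in the 6 arrays 0, 0 and 0. Leaving out 1 replicate gave 1 to 3 subpolysomal, 0 to 60 polysomal and 0 to 2 pool difference calls. Where 0 genes passed in these 3 comparisons, 1207 to 2596 had an unadjusted p under 0.05 in limma. Rps19 kept its direction in all settings, with changes from −1.73 (against untransduced cells) to −1.27 (quantile normalization). At a change of −1.58 its limma adjusted p was 0.0899 with 6 arrays, 0.0535 without a filter (18192 genes tested) and 0.126 with a block in the 6 arrays. With 1 replicate left out it was 0.0539 to 0.1 (change −1.66 to −1.44). Asph turned to −0.84 (adjusted p = 0.221) with the filter over all 24 arrays, which picks another probe set. Dus2, for which that filter also picks another probe set, had −1.37 there (adjusted p = 0.377). Over the 17 called genes, 169 of 354 values under the alternatives kept the call, 184 lost it and 1 reversed. The control construct against untransduced cells gave 0 calls in the 8 alternative settings tried for it. The trended, robust variance, the fit without a filter and leaving out 1 replicate were not among them. The causes of the other shifts were not tested. Dim probe sets such as Gsdma limit what can be said of the size of a fall.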
